A study of Sus scrofa with 20 samples.

Results

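The expression of 4 genes tied to the oxygen response was followed in pig kidney: CA9, ADM, ANKRD37 and the erythropoietin gene EPO. All probe sets whose platform annotation gives 1 of these symbols were taken, 6 probe sets for 4 genes out of 6765 genes with a single symbol. CA9 had 3 probe sets, called probe sets 1, 2 and 3 in order of brightness, and ADM, ANKRD37 and EPO had 1 each.

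The kidneys came from 20 randomized pigs, with 1 one-colour array per animal. In the 10 pigs of the neurologic death (ND) group, inflation of a subdural balloon brought about ND, on top of the burr hole, catheters and anaesthesia that were all the 10 control pigs received. Both groups were kept on a ventilator for 6 h after randomization, with 0.9% saline boluses of 2 cc/kg given as needed to keep the mean arterial pressure above 35 mmHg, and kidney tissue, 2 specimens per animal by the labels, was snap frozen. The labels give neither breed nor age, nor which zone of the kidney was taken. Animals are named by group and number, as in ND_47 and Control_199.

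Hypoxia-inducible factor (HIF) is a transcription factor made of an oxygen-sensitive alpha subunit (HIF1A or EPAS1) and a stable partner (ARNT). With oxygen present, prolyl hydroxylases such as EGLN1 mark the alpha subunit for destruction through VHL. With too little oxygen it persists and switches on its target genes. CA9 encodes a carbonic anhydrase of the cell surface that handles acid outside the cell, ADM the vasodilator peptide adrenomedullin, and ANKRD37 a small ankyrin repeat protein. In the adult, EPO is made mainly in the kidney, by interstitial cells around the tubules, where EPAS1 drives it, and it stimulates red cell formation.

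Values are log2 signals per probe set as deposited, and differences are ND minus control. Background was set as the highest value that any of 17 tag control probe sets, which match no pig RNA, reached on any array, 2.41. A probe set passed at an adjusted p under 0.05 (limma, Benjamini-Hochberg over 23999 probe sets). Array medians ran from 5.15 to 5.35 in ND and from 5.09 to 5.28 in control (permutation p = 0.00657). Of the 3 pairs of 3' and 5' control probe sets examined, none separated the groups (gapdh 3' minus 5' from 1.46 to 1.98 in ND and from 1.46 to 2.20 in control, permutation p = 0.0865). All 14 measured tubule and podocyte markers read above background. Of 6 adrenal and fat markers, the adrenal genes STAR and CYP17A1 and the fat gene ADIPOQ read at background on all arrays. CHGA, LEP and FABP4 read above it on all arrays. Precision was judged from the spread between animals, 10 a group, with 1 array each.

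The 4 genes did not move together. In ND kidneys CA9 (by its brightest probe set) and ADM fell, ANKRD37 rose, and EPO did not pass but read above background in 3 ND animals and in none of the 10 controls. So 3 of 4 genes passed, where 9.99% of all genes did by their brightest probe set, 5.44% as rises and 4.55% as falls. By probe set 3 of 6 passed, where 7.13% of all did, 3.8% as rises and 3.33% as falls. The genes were chosen with earlier results of these data known, so their share is no measure of how common such changes are.

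**Figure D1:**
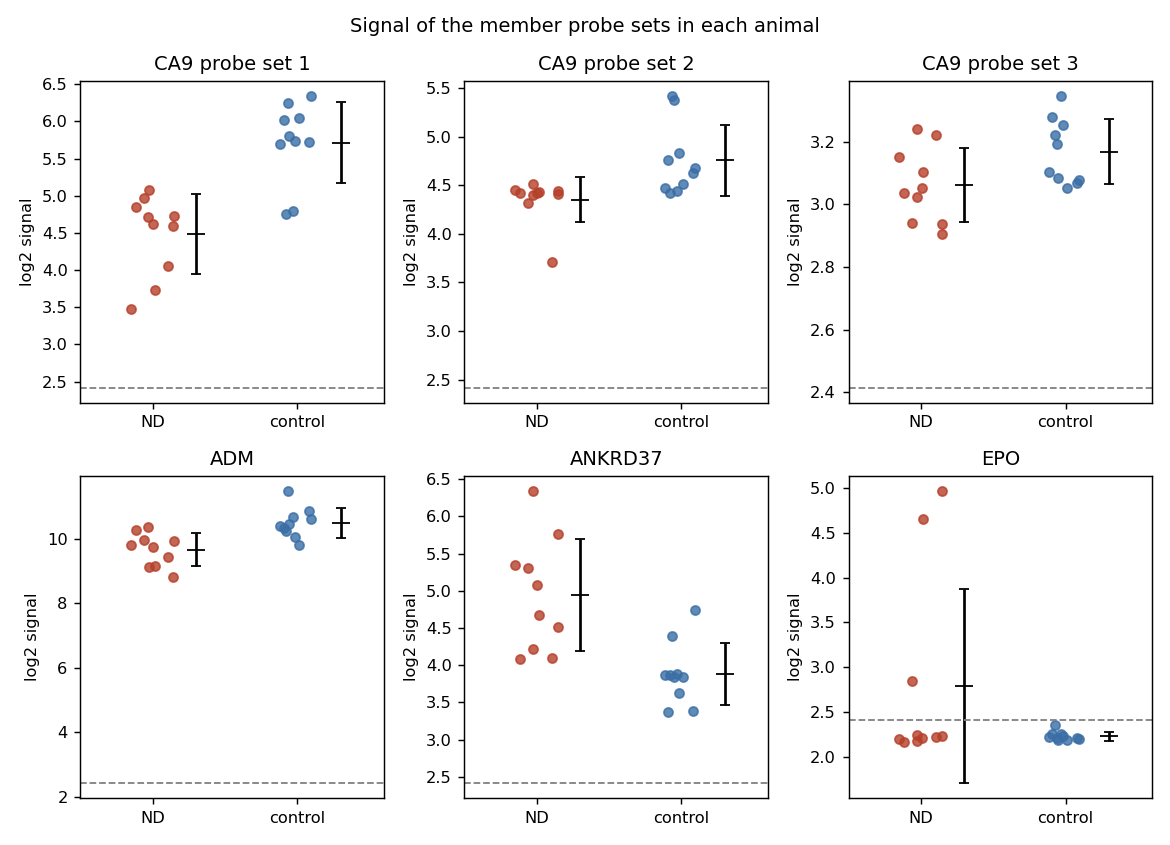
Log2 signal of each of the 6 probe sets in every animal, ND left and control right; black marks are the mean ± SD (n = 10 each) and the dashed line is the tag background of 2.41. The axes differ between panels and do not start at 0. CA9 probe set 1 and ADM sit lower in ND, ANKRD37 higher, and EPO leaves the background in 3 ND animals.

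CA9, which is known in human as a gene that healthy kidney expresses little, gave its clearest reading on probe set 1. In ND kidneys this probe set had a lowest, median and highest log2 signal of 3.48, 4.67 and 5.07, against 4.76, 5.76 and 6.35 in controls. All 10 ND animals lay under the control mean and 7 under every control. The groups overlapped only through Control_190 (4.79) and Control_199 (4.76), which read below ND_31, ND_86 and ND_92. The mean was 4.48 ± 0.54 in ND and 5.71 ± 0.54 in control (SD, n = 10 each). The difference was -1.23 ± 0.24 (SE; 95% interval -1.73 to -0.74), or a signal 2.35-fold lower, with a limma adjusted p of 0.00350. All 20 arrays were above background on this probe set.

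The other probe sets of CA9 moved less. Probe set 2 had a lowest, median and highest signal of 3.71, 4.42 and 4.51 in ND, against 4.42, 4.65 and 5.42 in control. Its difference of -0.40 ± 0.13 (SE) did not pass (adjusted p = 0.0727), although no ND animal lay above the control mean. Equalizing the array medians raised the probe sets called lower in ND from 799 as deposited to 7728, so passing as a fall there says little. Quantile normalization gave 1198 called lower. Probe set 2 passed with equal medians (-0.49, adjusted p = 0.0237) and with quantile normalization (-0.48, adjusted p = 0.0325). With a term for animal number it was at -0.31 (adjusted p = 0.457), and among the 8 animals with the highest numbers (Control_184 and above) at -0.12 (adjusted p = 0.631). Probe set 3 stayed within 2.91 to 3.24 in ND and 3.05 to 3.35 in control, less than 1 log2 unit over background on every array. Its difference was -0.11 ± 0.05 (SE; adjusted p = 0.159), and it passed after the array medians were equalized (-0.20, adjusted p = 0.0497), but was at -0.02 with a term for animal number (adjusted p = 0.919). All 3 probe sets therefore had the same sign, with sizes that followed their brightness. The sign of probe set 3 adds little, since the 5 genes most similar to it, also near background, differed by -0.14 to -0.08. With the 3 averaged the difference was -0.58 (adjusted p = 0.00125).

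ADM, a peptide that widens vessels and acts through the receptor CALCRL with a RAMP partner, was bright in both groups. Its lowest, median and highest signal was 8.83, 9.78 and 10.38 in ND, against 9.79, 10.43 and 11.48 in control. ND_47 read lowest of all 20 animals and Control_157 highest. All 10 ND animals lay under the control mean, 5 of them under every control, and 6 controls lay above every ND animal. The mean was 9.66 ± 0.51 in ND and 10.49 ± 0.46 in control (SD, n = 10 each). ADM thus fell by 0.83 on the log2 scale (± 0.21, SE; 95% interval -1.27 to -0.38), a signal 1.77-fold lower, with an adjusted p of 0.0220. The ND mean ranked above 87.0% of all probe sets in ND and the control mean above 91.9% in control.

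ANKRD37 went the other way. Its lowest, median and highest signal was 4.08, 4.88 and 6.34 in ND, against 3.37, 3.85 and 4.74 in control. Every ND animal lay above the control mean, 5 lay above every control, and 8 controls lay below every ND animal. The overlap came from Control_156 (4.74) and Control_157 (4.39). The spread was wider in ND, with a mean of 4.94 ± 0.76 in ND and 3.88 ± 0.42 in control (SD, n = 10 each). ANKRD37 rose by 1.07 ± 0.27 (SE; 95% interval 0.51 to 1.62), or 2.09-fold, with an adjusted p of 0.0193. ND_193 (6.34) and ND_22 (5.77) were the highest, and ND_31 (4.08), ND_100 (4.10) and ND_92 (4.22) the lowest of the ND group.

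Since CA9 fell and ANKRD37 rose, the pair was also read as a difference within each array, which no scaling by a constant per array can change. ANKRD37 minus CA9 probe set 1 ran from -0.85 to 1.86 in ND, with a median of 0.40. In control it ran from -2.64 to -0.89, with a median of -1.91. No ND animal overlapped with a control, although the gap between the nearest 2 animals (ND_92 and Control_199) was small. The group means differed by 2.30, which follows from the rise of the 1 gene and the fall of the other. ANKRD37 minus ADM ran from -6.19 to -4.03 in ND and from -7.46 to -5.88 in control, with 9 ND animals above every control. CA9 minus ADM, the 2 genes that fell, ran from -6.33 to -4.05 in ND and from -5.87 to -3.75 in control, and the groups overlapped widely. These pairs were chosen after the single values were seen and carry no test.

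**Figure D2:**
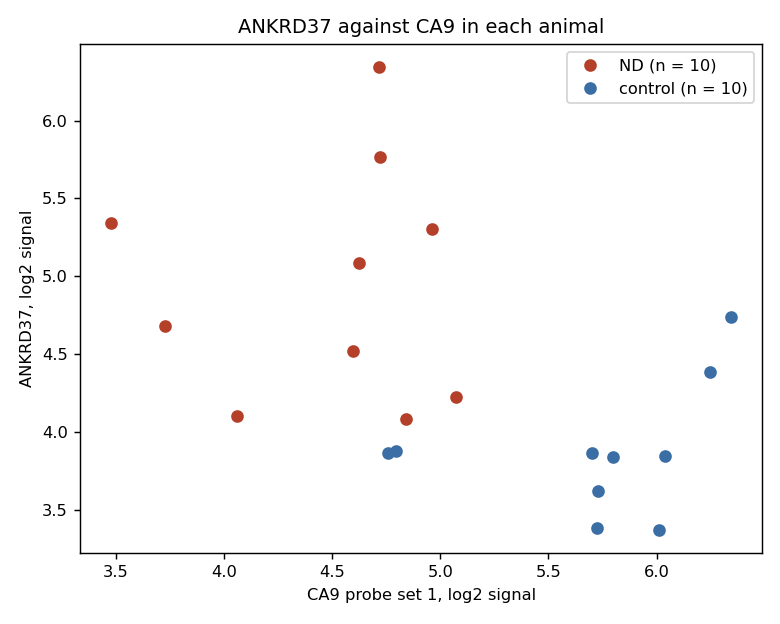
ANKRD37 (vertical axis) against CA9 probe set 1 (horizontal axis) in each animal, both as log2 signal, with 10 ND and 10 control animals. The ND animals lie up and to the left of the controls, with either axis alone overlapping.

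Within a group no relation between the 3 genes passed after adjustment. In all 12 relations were computed, all pairs of the 4 genes in each group, and their p-values were adjusted together. The closest pair without EPO in ND was ADM with ANKRD37, with Pearson's r of 0.55 (permutation p = 0.0963, adjusted p = 0.385) and Spearman's rho of 0.44 (permutation p = 0.207, adjusted p = 0.901; n = 10). Without ND_47 and ND_92, the 2 animals farthest from the ADM median, r was 0.45. In control the pair had r of 0.38 (permutation p = 0.270, adjusted p = 0.659) and rho of 0.36 (permutation p = 0.311, adjusted p = 0.901), and r was 0.16 without Control_134 and Control_157. CA9 and ANKRD37 had r of 0.02 in ND (permutation p = 0.950, adjusted p = 0.950) and 0.32 in control (permutation p = 0.368, adjusted p = 0.659). Their rho was -0.10 in ND (permutation p = 0.786, adjusted p = 0.943) and 0.16 in control (permutation p = 0.657, adjusted p = 0.943). Without the 2 animals farthest from the CA9 median, r was 0.18 in ND and 0.76 in control. CA9 and ADM had r of 0.21 in ND (permutation p = 0.558) and 0.19 in control (permutation p = 0.594), both with an adjusted p of 0.659, and r was 0.18 and 0.35 without the 2 farthest animals. Their rho was 0.28 in ND (permutation p = 0.429, adjusted p = 0.901) and 0.12 in control (permutation p = 0.759, adjusted p = 0.943). The 6 relations with EPO are not given, because EPO split the ND animals into 2 clusters and sat at background in control.

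EPO stood at background in every control animal. Its lowest, median and highest signal was 2.17, 2.23 and 4.97 in ND, against 2.18, 2.21 and 2.36 in control. ND_47 (4.97), ND_194 (4.66) and ND_86 (2.85) read above background, and the other 7 ND animals lay between 2.17 and 2.24, inside the range of the tag probe sets. EPO averaged 2.79 ± 1.09 in ND and 2.23 ± 0.05 in control (SD, n = 10 each). The difference of 0.56 ± 0.33 (SE; 95% interval -0.14 to 1.26) did not pass (adjusted p = 0.247), nor did the single value (two-sided permutation p = 0.183).

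Because all controls were at background, the control level is only a bound. Taking for each control array the lowest signal above background, or EPO's own where higher, EPO was at least 5.87-fold higher in ND_47, 4.73-fold in ND_194 and 1.35-fold in ND_86. The ND mean over the same floor was 1.30-fold, which is no bound, because the 7 ND arrays under background were taken as read. Without ND_47 the difference was 0.32 (adjusted p = 0.385) and without ND_194 it was 0.35 (adjusted p = 0.375). ND_47 had the lowest array weight of all arrays (0.26, the next 0.56). With array weights the EPO difference was 0.40 (adjusted p = 0.309). Against the highest tag value of the same array, 3 ND arrays and 1 control array (Control_199, 2.36 against 2.35) read higher. In whole tissue, fewer cells of a type and less RNA per cell cannot be told apart, for EPO as for the other genes.

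**Figure D3:**
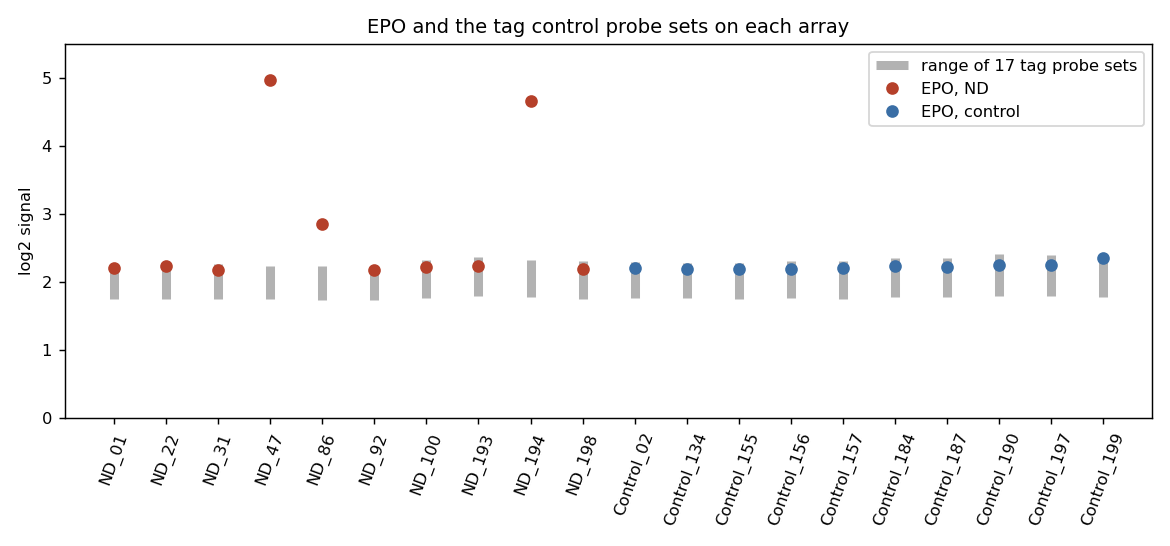
EPO log2 signal (points) on each of the 20 arrays, ND arrays first, with the range of the 17 tag control probe sets on the same array (grey bars). ND_47 and ND_194 stand far above the tags and ND_86 just above them, and the other arrays lie within the tag range or, for Control_199, just above it.

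The 3 ND animals with EPO above background did not rank alike within the ND group for ADM, CA9, SLC2A3 or LDHA. ADM was lowest in ND_47 (8.83), and ranked 8 from the top in ND_194 (9.16) and 3 in ND_86 (9.94) among the 10 ND animals. CA9 probe set 1 was at 4.60 in ND_47, 3.73 in ND_194 and 4.96 in ND_86. ANKRD37 was at 4.52 in ND_47, 4.68 in ND_194 and 5.30 in ND_86, in the middle of the ND range. ND_47 had the highest signals of the ND group for HIF1A (13.45, against 11.60 to 12.03 in control), for the glucose transporter SLC2A3 (9.58, against 4.68 to 6.99) and for lactate dehydrogenase LDHA (12.23, against 10.19 to 11.05). ND_194 ranked 5, 9 and 5 from the top of the ND group for these genes, and ND_86 ranked 6, 3 and 8.

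Of 12 measured markers of interstitial cells and pericytes 1 rose, none fell and 11 did not pass. That is 8.33%, beside 9.99% of all genes, and the median difference was 0.48, beside -0.02. PDGFRB, a receptor of pericytes and fibroblasts, rose by 0.65 (adjusted p = 0.0361), and its call was lost when any of 4 ND animals (ND_22, ND_01, ND_92, ND_86) or 5 controls (Control_190, Control_184, Control_157, Control_134, Control_02) was left out, with adjusted p up to 0.0661. PDGFRB was at 0.13 among the highest-numbered animals (adjusted p = 0.758), and a dimmer PDGFRB probe set at -0.05. The matrix proteoglycan LUM differed by 1.33 and did not pass (adjusted p = 0.0618), but passed without ND_22, ND_198, Control_156 or Control_157 (adjusted p as low as 0.0126). The mean level of the list ran from 6.89 to 7.94 in ND and from 6.37 to 7.23 in control. It was 7.94 in ND_47, the highest of the ND group, 7.54 in ND_86 and 7.41 in ND_194, and none of the 12 markers was at background on all arrays. The part of these cells in the EPO signal was not tested.

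Genes around EPO passed in 2 of 11 measured cases, 1 up and 1 down (18.2%, beside 9.99% of all genes), with a list median of 0.09. STAT5A, a signal transducer used by the EPO receptor, had signals of 5.93 to 6.93 in ND and 5.20 to 6.07 in control. It rose by 0.68 ± 0.13 (SE; adjusted p = 0.00409), while its dimmer probe sets did not move (-0.00 each). HNF4A, a nuclear receptor that binds the EPO enhancer and is itself a proximal tubule factor, ran from 10.62 to 12.59 in ND and from 12.61 to 13.06 in control, with no overlap. It fell by 0.84 (adjusted p = 0.0174). The other 9 did not pass, among them the EPO receptor gene EPOR (-0.06, adjusted p = 0.118). Its tested probe set was at background on all arrays, as were those of SOCS3 and RXRA. Of the platform's 3 EPOR control probe sets, which were left out of the tests, 1 read just above background on all arrays, at 2.49 to 2.58 in ND and 2.54 to 2.64 in control.

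The adrenomedullin system had 6 measured genes, and none passed (median difference -0.01). RAMP2, which pairs with CALCRL to form an adrenomedullin receptor, ran from 7.44 to 9.30 in ND and from 7.95 to 9.07 in control, a difference of -0.28 (95% interval -0.72 to 0.17, adjusted p = 0.357). CALCRL (-0.03, adjusted p = 0.257) and RAMP3 (-0.03, adjusted p = 0.192) were at background on all arrays, so the receptor side could be read only through RAMP2 and the dim RAMP1. CALCB, a related peptide gene, was above background in 1 ND animal and no control (0.25, adjusted p = 0.224). Among 8 endothelial markers CLDN5 rose (2.02, adjusted p = 0.00370) and 7 did not pass, a called share of 12.5% beside 9.99% of all genes. TIE1 was at 0.54 (adjusted p = 0.0933, and 0.0285 without ND_31), and TEK, the lowest of the list, at -0.53 (adjusted p = 0.253). The list mean ran from 6.17 to 7.79 in ND and from 6.40 to 6.81 in control. KDR was the 1 endothelial marker at background on all arrays. ADM fell while this list's median was 0.24, and the part of endothelial cells in the ADM level was not tested.

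Beside CA9, 3 carbonic anhydrase genes were measured, and none passed. CA12, another cell surface member of the family and a HIF target in some tumours, ran from 5.84 to 7.55 in ND and from 5.33 to 7.07 in control (0.36, 95% interval -0.15 to 0.87, adjusted p = 0.300). Its sign turned among the 8 animals with the highest numbers (-0.03). CA3 was dim (-0.10, adjusted p = 0.137), and CA11 was at background on all arrays.

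The HIF pathway genes themselves did not pass in any of 11 measured cases as deposited (median 0.05). HIF1A had signals of 11.77 to 13.45 in ND and 11.60 to 12.03 in control, with 6 ND animals above every control. Its difference was 0.45 (95% interval 0.10 to 0.79, adjusted p = 0.103), and 0.09 among the highest-numbered animals. With array weights it was at 0.28, and averaged over its 4 probe sets at 0.16 (the dimmer ones at -0.05, -0.02 and 0.28). EPAS1 was at 0.02 (95% interval -0.32 to 0.36, adjusted p = 0.941) and EGLN1 at 0.10 (95% interval -0.08 to 0.28, adjusted p = 0.429). ARNT, dim at 2.62 to 2.86 in ND and 2.77 to 3.04 in control, was at -0.11 (adjusted p = 0.101). It passed after equalizing the array medians (-0.19, adjusted p = 0.0460), where 7728 probe sets were called lower, against 799 as deposited. HIF activity is set largely by protein stability, which arrays do not measure.

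Other HIF targets passed about as often as all genes did. Over 3 lists of targets, 48 genes were measured, of which 3 rose, 2 fell and 43 did not pass, a called share of 10.4% beside 9.99% of all genes. The median difference over the 48 was 0.03, and that over all genes was -0.02. Of 19 genes of glucose uptake and glycolysis SLC2A3 rose, with signals of 6.93 to 9.58 in ND and 4.68 to 6.99 in control (1.67 ± 0.34, SE; adjusted p = 0.00591). The transporter SLC2A1 (0.08, adjusted p = 0.819; -0.01 after equalizing the array medians), PGK1 (-0.01, adjusted p = 0.874), LDHA (0.40, adjusted p = 0.133) and GAPDH (0.15, adjusted p = 0.118) did not pass. SLC2A3 is also expressed by leukocytes. Of 6 leukocyte markers 3 rose and 1 fell, a called share of 66.7% beside 9.99% of all genes. LAPTM5 (1.11), CD3E (0.91) and ITGB2 (0.83, a call lost without ND_01, Control_157 or Control_187) rose and CD163 fell (-2.04). The mean of the 6 markers ran from 4.58 to 6.26 in ND and from 4.68 to 5.29 in control. None of the 6 was at background on all arrays. CD3E, however, read above it on only 8 ND arrays and 1 control array, so its control level is mostly a bound. The part of leukocytes in the SLC2A3 signal was not tested.

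Among 15 targets that act on vessels, matrix and iron, ANGPTL4, an inhibitor of lipoprotein lipase, and HMOX1, which breaks down haem, fell. ANGPTL4 ran from 7.32 to 11.62 in ND and from 10.63 to 12.73 in control (-2.47, adjusted p = 0.00521), and glucocorticoids and fasting also control it. HMOX1 ran from 7.73 to 9.50 in ND and from 8.99 to 10.81 in control (-1.09 ± 0.26, SE; adjusted p = 0.0155). VEGFA, the vessel growth factor, was at -0.02 (95% interval -0.25 to 0.22, adjusted p = 0.927), bright in both groups.

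Of 14 targets in cell survival, mitophagy and feedback, ERO1A, which forms disulphide bonds in the endoplasmic reticulum, and ZNF395, a zinc finger factor, rose. ERO1A (0.54, adjusted p = 0.0386) had 7 ND animals above every control. It lost its call without ND_47, ND_92, Control_02, Control_134, Control_155, Control_184, Control_187 or Control_197 (adjusted p up to 0.0727), with quantile normalization (0.46, adjusted p = 0.0805) and with array weights (0.43, adjusted p = 0.0638). ZNF395 (0.44, adjusted p = 0.0301) had 8 ND animals above every control and ND_47 below them all. It lost its call without ND_22, ND_86, ND_92, Control_02, Control_184, Control_190 or Control_197 (adjusted p up to 0.0573).

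Markers of tubules, podocytes, red cells, adrenal and fat gave 2 calls, both falls. The called share was 12.5% of proximal tubule markers and 16.7% of adrenal and fat markers, beside 9.99% of all genes. The proximal tubule list had 8 measured members, of which PCK1, the key enzyme of glucose formation, fell (-0.66, adjusted p = 0.0222) and 7 did not pass. PCK1 lost its call with array weights, at -0.51 (adjusted p = 0.0503). The mean of the proximal tubule list ran from 11.15 to 12.62 in ND, lowest in ND_47, and from 11.90 to 12.40 in control. The 3 distal nephron markers lay between -0.54 and -0.49 and did not pass. Of these the channel genes KCNJ1 (adjusted p = 0.0202) and SCNN1B (adjusted p = 0.0440) passed after equalizing the array medians, and KCNJ1 without ND_92. Equal medians gave 7728 probe sets called lower, against 799 as deposited. None of 3 podocyte markers (median 0.13) or 4 red cell markers (median -0.03) passed. Of 6 adrenal and fat markers FABP4, a fatty acid carrier also found in endothelium, fell (-0.89, adjusted p = 0.0160), and 5 did not pass.

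**Figure D4:**
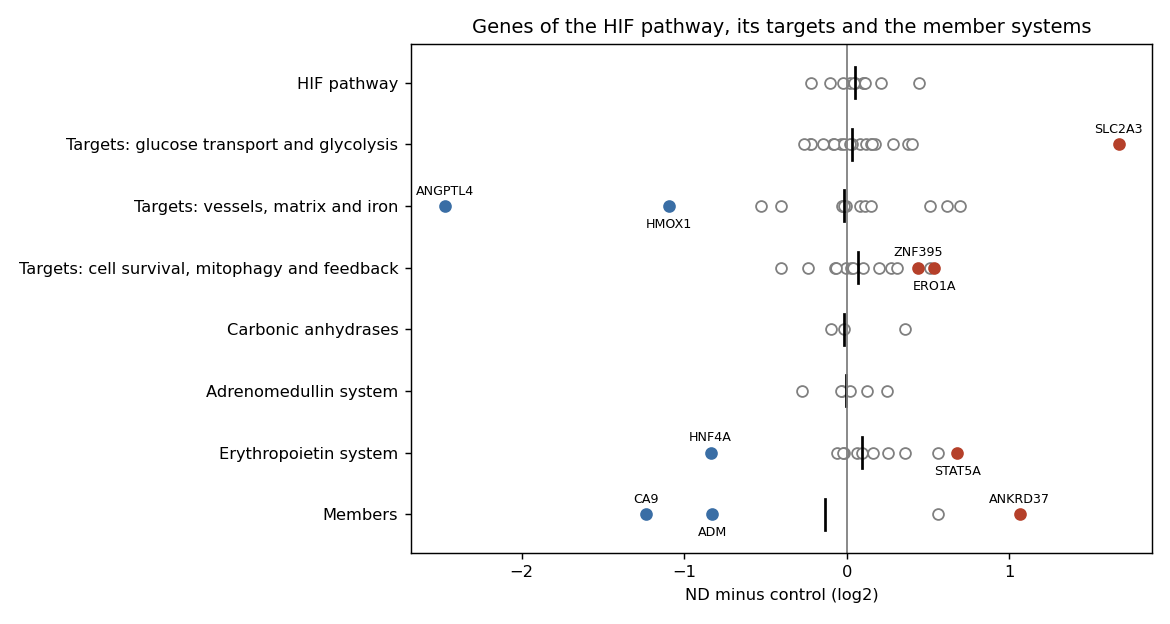
ND minus control difference (log2) of each measured gene, by its brightest probe set, in 7 lists and for the 4 genes (bottom row); filled red points rose, filled blue points fell, open points did not pass, and black ticks are list medians. The medians lie near 0 and the called genes fall on both sides, with ANGPTL4 lowest and SLC2A3 highest.

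ND animals carried mostly low numbers and controls mostly high ones, with 7 of 10 ND animals and 1 of 10 controls numbered up to 100. With a term for that split CA9 probe set 1 (-1.54, adjusted p = 0.00703) and ANKRD37 (1.47, adjusted p = 0.0176) kept their calls. ADM kept its size but lost its call (-0.83 ± 0.28, SE; adjusted p = 0.143). Calls were also lost by SLC2A3 (1.34, adjusted p = 0.124), HMOX1 (-1.19, adjusted p = 0.0796), ERO1A (0.58, adjusted p = 0.152), STAT5A (0.47, adjusted p = 0.128), HNF4A (-0.64, adjusted p = 0.242) and PDGFRB (0.45, adjusted p = 0.390), and by the marker genes CLDN5 (1.83, adjusted p = 0.0660), PCK1 (-0.50, adjusted p = 0.277), LAPTM5 (0.69, adjusted p = 0.134), CD3E (0.45, adjusted p = 0.428) and ITGB2 (0.47, adjusted p = 0.463). ANGPTL4 (-3.21, adjusted p = 0.00665) and ZNF395 (0.57, adjusted p = 0.0473) kept theirs, as did CD163 (-2.52, adjusted p = 0.00420) and FABP4 (-1.07, adjusted p = 0.0458).

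Restricted to the 3 ND and 5 control animals with the highest numbers (Control_184 and above), none of the 4 genes passed. CA9 probe set 1 ran from 3.48 to 4.72 in these ND animals and from 4.76 to 6.01 in these controls, without overlap (-1.42 ± 0.41 SE, adjusted p = 0.219). ANKRD37 ran from 4.68 to 6.34 in these ND animals and from 3.37 to 3.88 in these controls, again without overlap (1.74 ± 0.35 SE, adjusted p = 0.117). How many of all probe sets separated so few animals in this way was not counted, so the lack of overlap is only a description. ADM overlapped, at 9.16 to 10.38 in these ND animals and 10.07 to 10.66 in these controls (-0.55, adjusted p = 0.436). None of the 15 called genes named from the lists passed there either. Of these STAT5A (0.28), PDGFRB (0.13), PCK1 (-0.35), LAPTM5 (0.66), CD3E (0.20) and ITGB2 (0.20) were also more than 1.5 times smaller. What the animal numbers stand for is not given in the labels, and their part in the ADM difference was not tested beyond these values.

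**Figure D5:**
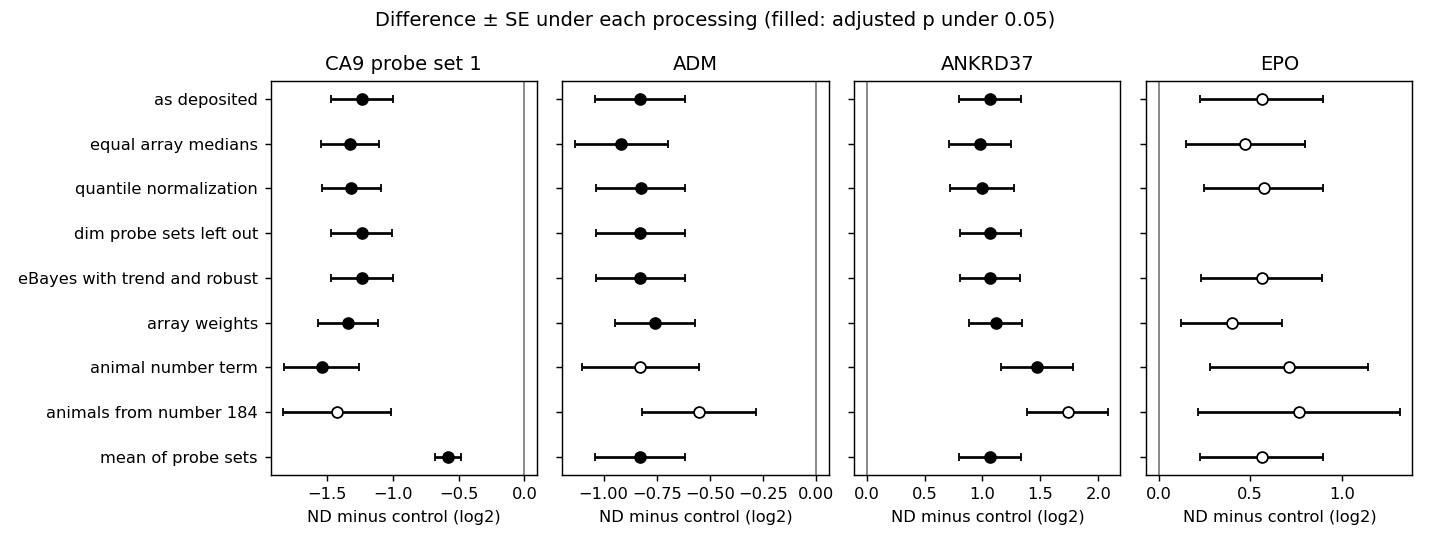
ND minus control difference (log2) ± SE for the 3 called probe sets and EPO, as deposited (top) and under each other processing; filled points had an adjusted p under 0.05. Signs stay the same in each row shown, and the filled points of CA9, ADM and ANKRD37 open in the row of the highest-numbered animals, and for ADM also with the animal number term. The row without dim probe sets has no EPO value.

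For each probe set above background on 10 or more of the 20 arrays, the 5 genes with the most similar pattern were taken by Pearson's r of deviations from the group mean over the 20 arrays, a description with no test. For CA9 probe set 1 they were KARS (0.85), DGCR14 (0.81), SH3BGR (0.80), SLC25A6 (0.80) and SYPL1 (0.76), of which SYPL1 rose (0.29, adjusted p = 0.0361) and the others did not pass. For CA9 probe set 2 they were FANCF (0.74), C3H2orf40 (0.74), TMEM223 (0.67), UPRT (0.66) and UBXN4 (0.66), a set that shares no gene with that of probe set 1. For CA9 probe set 3 they were DKK1, PHEX, TXLNB, MMP20 and LOC102160313 (0.95 each), all with group means under 3.3, near background. For ADM they were GRSF1 (0.87), MAGEH1 (0.86), the adiponectin receptor ADIPOR2 (0.83), USE1 (0.83) and AKAP7 (0.83), none of which passed. For ANKRD37 they were INSIG1 (0.76), which restrains sterol synthesis, LOC100522498 (0.74), the triglyceride-forming enzyme DGAT2 (0.73), MXRA8 (0.73) and the transcription factor FOXO1 (0.72). FOXO1 fell between the groups (-0.62, adjusted p = 0.00979) while ANKRD37 rose, and the other 4 did not pass.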

How the data were processed

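Kidney RNA was isolated with TRIzol, and 250 ng of it gave the biotin-tagged cRNA, per the labels' protocols. For each array the authors deposited a single value per probe set, taken here as log2 from the range 0.88 to 16.2; background correction, summarization and normalization are not given in the sources used here. Of 24123 probe sets, 124 control probe sets were left out and 23999 tested. Genes were named from the platform annotation, and all 6 symbols matched a RefSeq gene table through the Entrez ID. No coordinates or sequences were used.

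Groups and animal numbers came from sample titles. Probe sets were fitted with limma 3.58.1 (lmFit, eBayes) in R 4.3.3, without covariates. Relations and single values used two-sided permutation tests with 100000 resamples. Genes were read from their brightest probe set. The genes, lists and tests were chosen with earlier results of these data known. Named from each list were the called members, up to 8, or the 2 with the smallest p where fewer passed; others were the 5 genes most similar to each probe set and genes of prior interest. The exceptions are RAMP1, SOCS3, RXRA, CA11, KDR, TEK, STAR, CYP17A1, ADIPOQ and LEP, which were chosen after their values were seen. Lists covered the HIF pathway, HIF targets, carbonic anhydrases, the adrenomedullin and erythropoietin systems, and markers of interstitial, proximal tubule, distal nephron, podocyte, endothelial, leukocyte, red, adrenal and fat cells. Alternatives covered scaling, dim probe sets, variance model, array weights, animal number, probe set summary, threshold, background and leaving out each animal. The fit was tested on simulated data. The planned motif search in promoters was not run, and no log transform was needed.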

Additional observations from a re-analysis of the deposited data

Results flagged for a closer look

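Of 94 groups of 10 values examined (each named probe set in each animal group), 12 held an animal far from the rest, where chance gives about 1 in 20. For CA9 probe set 2, ND_100 read 3.71, and the next ND animal 4.32. For EPO, Control_199 read 2.36, under the background of 2.41, and the next control 2.25. ND_47 stood apart from the other ND animals for 4 genes: it was lowest for ZNF395 (8.88) and highest for PDGFRB (12.04), CLDN5 (9.62) and LDHA (12.23). ND_100 was highest of ND for CALCB (3.34). Among controls, Control_187 was highest for ARNT (3.04), Control_02 for CA3 (2.95), Control_184 for HNF4A (13.06) and Control_134 for the potassium channel gene KCNJ1 (11.31), and Control_134 was lowest for STAT5A (5.20).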

How the results depend on the processing

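No paired analysis was possible because ND and control animals share no numbers. Leaving out each animal in turn changed no call of the 6 probe sets: CA9 probe set 1 stayed between -1.34 and -1.12, probe set 2 between -0.44 and -0.33, probe set 3 between -0.13 and -0.09, ADM between -0.91 and -0.72, ANKRD37 between 0.91 and 1.16, and EPO between 0.32 and 0.63. Among the highest-numbered animals (Control_184 and above), where fewer animals entered, CA9 probe set 1 (-1.42), ADM (-0.55) and ANKRD37 (1.74) missed the threshold, as did ADM with the animal number term (-0.83). CA9 probe set 2 passed after equalizing the array medians (-0.49), with quantile normalization (-0.48) and as a single value by permutation (-0.40, p = 0.00062, unadjusted). CA9 probe set 3 passed with equal medians (-0.20) and as a single value (-0.11, permutation p = 0.0462, unadjusted). Equalizing the array medians lowered the difference of every probe set by 0.089, the gap between the mean array medians of the groups. What else set these calls was not tested. EPO read above background on 3 control arrays with the 95th percentile of tag values (2.24) and on 1 with the highest tag value of the same array. With the tryptophan controls added (2.79), chosen after seeing the data, the arrays above background were 3 ND and 0 control.

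In all 1712 probe sets changed (913 higher, 799 lower). With equal array medians 8789 did (1061 higher, 7728 lower), with the animal number term 505 (179 higher, 326 lower), among the highest-numbered animals 57 (19 higher, 38 lower), and at an adjusted p under 0.01 619 (303 higher, 316 lower). Leaving out 1 animal gave 1295 to 2303 (680 to 1059 higher, 615 to 1244 lower), the most without ND_193 and the fewest without ND_92. Quantile normalization, array weights, the trend and robust variance model and leaving out dim probe sets kept the count within 1547 to 2115. EPO was not tested without dim probe sets.

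Signs turned for 5 genes, none of which passed under these settings: EPAS1, VEGFA, SLC2A1 and PGK1, near 0 as deposited, and CA12, at 0.36 as deposited. CA12 was at -0.033 among the highest-numbered animals. EPAS1 was at -0.069 with equal medians, -0.0018 with quantile normalization, -0.17 with array weights, -0.15 with the animal number term and -0.24 among the highest-numbered animals, and ran from -0.051 to 0.091 without 1 animal. VEGFA was at 0.013 with quantile normalization and 0.015 with array weights, and ran from -0.077 to 0.043. SLC2A1 was at -0.0077 with equal medians and ran from -0.014 to 0.22. PGK1 was at 0.019 with quantile normalization, 0.022 with the animal number term and 0.16 among the highest-numbered animals, and ran from -0.041 to 0.0098. Of the 41 genes named from the lists or as genes of prior interest, the 5 with turned signs included, 15 were called as deposited. Of these 15, 11 lost their call with the animal number term, 15 among the highest-numbered animals, 2 with array weights and 1 with quantile normalization. Equal array medians added 11 calls, among them EPOR, RAMP3, CALCRL and CA3, which lie at or near background. Signals near background, as for EPO, CA9 probe set 3 and ARNT, limit what can be read.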
